A study of Homo sapiens with 12 samples.

Results

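The proteasome genes examined here are the protein-coding genes whose symbol is PSMA, PSMB, PSMC, PSMD, PSME, PSMF or PSMG followed by a digit. The rule gave 50 genes of 19868 protein-coding genes of GENCODE level 1 or 2, and it used no measured value. Their RNA was measured by bulk RNA sequencing in HL-60 and Molm-14 cells, 2 human acute myeloid leukemia (AML) cell lines, after 36 h with or without duocarmycin SA (DSA), a compound that forms covalent adducts with adenine in AT-rich DNA. The treated groups were HL-60 cells with 112.7 pM (low) or 500 pM (high) DSA and Molm-14 cells with 11.1 pM (low) or 100 pM (high) DSA, and each line had a control group that the labels call untreated, while the methods name vehicle, with 2 libraries in each of the 6 groups. Each is 1 established line, and the 2 were grown in different media, so a difference between the lines cannot be told apart from a difference in medium, serum or dose. Nothing states that the 2 libraries of a group came from separate cultures, and p-values then measure only the spread between these libraries, which may be technical.

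The proteasome is the barrel-shaped protease that degrades ubiquitin-tagged proteins in the cytosol and nucleus. Its 20S core is built from a pair of alpha rings and a pair of beta rings, with the active sites on PSMB6, PSMB7 and PSMB5, and in the immunoproteasome of blood cells PSMB9, PSMB10 and PSMB8 take the places of these subunits. The 19S cap (PSMC ATPases and PSMD subunits) unfolds and de-ubiquitinates substrates, whereas the PSME activators open the core without ubiquitin. PSMG proteins are chaperones that assemble the alpha ring.

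Totals ran from 21177424 to 63927449 expected counts per library, and the lowest mean count of a tested member was 659.8, so counting error was small for these genes. Of the 50 members, 48 passed the filter on low counts. PSMA8 and PSMB11, the core subunits of testis and thymus, had 0 counts in all 12 libraries, which allows up to 3 counts in each. PSMC3IP, a recombination cofactor, and PSME3IP1, a partner of PSME3, met the symbol rule without being subunits. Values in each library are counts scaled to a common library size with TMM factors (CPM). A log2 fold change is given ± SE from edgeR's quasi-likelihood test, and a member was called where its p, adjusted by Benjamini-Hochberg over all 13422 genes tested, was under 0.05. The mitochondrial share of all counts was 5.456% and 4.637% in HL-60 cells at 500 pM against 2.222% and 2.472% in their controls, and 4.093% and 2.721% in Molm-14 cells at 100 pM against 1.471% and 1.677% in their controls. Myeloid markers were present in both lines, at least 7 of 8 with a mean of 1 TPM (RSEM's length-scaled unit) or more in each group. Their sum was 3653 and 3693 TPM in HL-60 cells at 500 pM, against 7366 and 7481 TPM in their controls, although 4 of the 8 were called higher and 2 lower (median log2 fold change 0.22). Over all genes tested 35.8% were higher and 37.8% lower. MPO, the most abundant of the 8 in HL-60 controls by CPM, had 5851 and 5924 CPM at 500 pM, against 15708 and 15646 CPM in controls. In Molm-14 cells the sum of the 8 was 1620 and 1659 TPM at 100 pM, against 1043 and 1056 TPM in controls. There 6 of 8 were called higher and 1 lower, beside 22.9% and 21.9% of all genes tested. T cell markers summed to 4.12 and 4.46 TPM in HL-60 cells at 500 pM, against 0.45 and 0.59 TPM in their controls (2 of 5 at a mean of 1 TPM or more, and 2 of 5 at 0 counts in the controls). In the same comparison B cell markers summed to 10.34 and 12.36 TPM against 4.31 and 4.69 TPM, and stromal and epithelial markers to 2.86 and 3.08 TPM against 0.51 and 0.88 TPM. All 3 tested members of each of these 2 lists were called higher, beside 35.8% of all genes tested. Erythroid markers stayed under 1 TPM in all groups, with 3 of 4 at 0 counts. The part of these shifts in the results was not tested.

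Without DSA, HL-60 cells carried more RNA of most proteasome genes than Molm-14 cells. The immunosubunits PSMB8, PSMB9 and PSMB10 and the activators PSME1 and PSME2 were lower. In untreated HL-60 against untreated Molm-14 cells 40 of 48 members were higher and 7 lower, with a median log2 difference of 0.68, while 43.9% of all genes tested were higher and 40.1% lower with a median of 0.058. In these bulk samples fewer cells of a kind and less RNA per cell cannot be told apart. Members made up 0.9294% and 0.939% of all counts in HL-60 controls, against 0.5364% and 0.5273% in Molm-14 controls. All 17 subunits of the 19S cap were higher, by 0.16 to 1.80 on the log2 scale. PSMB5, which carries the chymotrypsin-like site, had 373 and 375 CPM in untreated HL-60 and 82.2 and 80.1 CPM in untreated Molm-14 cells, a log2 difference of 2.20 ± 0.039 (adjusted p = 4.61e-20, edgeR). No other member differed more between the lines. PSMB7, the trypsin-like subunit, had 221 and 229 CPM in untreated HL-60 and 119 and 116 CPM in untreated Molm-14 cells. The caspase-like subunit PSMB6 had 104 and 102 CPM in untreated HL-60 and 88.6 and 88.4 CPM in untreated Molm-14 cells. The log2 differences were 0.93 ± 0.037 for PSMB7 and 0.22 ± 0.041 for PSMB6, so the 3 constitutive active sites differed between the lines by unlike amounts. PSMB4 of the beta ring and PSMD4, a ubiquitin receptor of the cap, differed by 2.08 ± 0.031 and 1.80 ± 0.032, and their genes lie 132.1 kb apart on chromosome 1.

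The 7 members that were lower in untreated HL-60 than in untreated Molm-14 cells were the immunosubunits PSMB8, PSMB9 and PSMB10, the activators PSME1 and PSME2, the alpha subunit PSMA1 and the cap chaperone PSMD5. PSMB8 had 103 and 102 CPM in untreated HL-60 and 168 and 163 CPM in untreated Molm-14 cells. PSMB10 had 61.6 and 64.6 CPM in untreated HL-60 and 98.4 and 102 CPM in untreated Molm-14 cells. PSMB9, the least abundant of the 3, had 17.0 and 16.5 CPM in untreated HL-60 and 23.8 and 25.7 CPM in untreated Molm-14 cells. PSME1 and PSME2, which together form the PA28 ring induced by interferon gamma, differed by -0.97 ± 0.042 and -0.33 ± 0.046 on the log2 scale, and PSMD5 by -1.02 ± 0.058. In none of these 7 did the libraries of the untreated lines overlap. They were picked by their call in the same libraries, and the share of all genes without overlap was not taken, so this adds no support. Per length, PSMB4 ranked first in both lines with 1901 ± 10.1 TPM in HL-60 and 427 ± 2.0 TPM in Molm-14 controls (mean ± SD, n = 2 each). The median TPM of the 14 constitutive core genes was 352 and 352 in HL-60 controls, against 182 and 175 in Molm-14 controls. That of the 17 cap genes was 171 and 172 in HL-60 controls, against 101 and 98.0 in Molm-14 controls, so the median of the core genes lay above that of the cap genes in both lines. Among the 14 constitutive core genes the highest TPM was 16.03 and 16.42 times the lowest in the HL-60 controls, and 5.809 and 6.004 times in the Molm-14 controls.

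**Figure D1:**
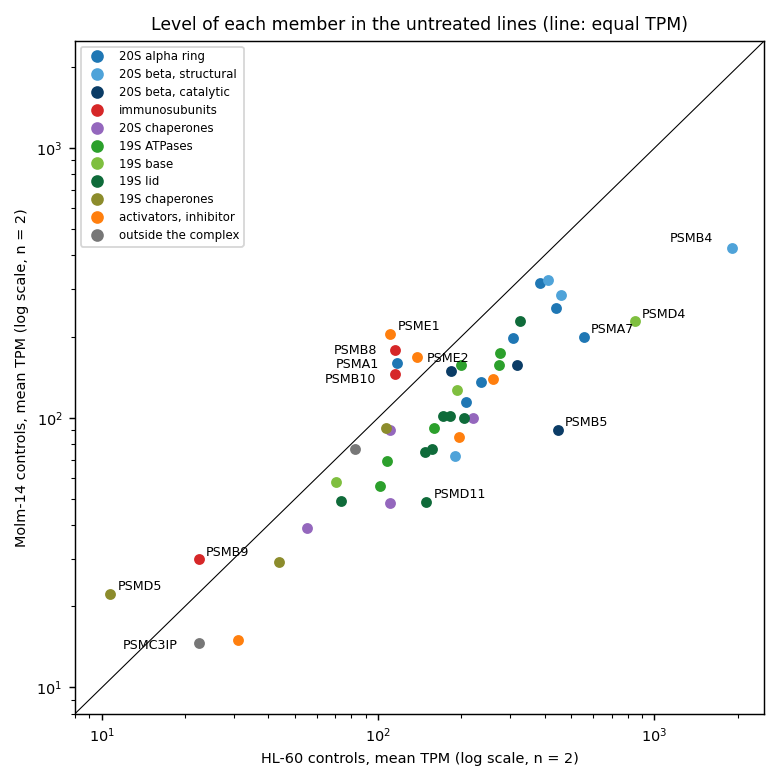
Mean TPM of each of the 48 detected members in HL-60 controls (x axis, log scale) and Molm-14 controls (y axis, log scale), n = 2 libraries each, with the line of equal TPM. Most members lie on the HL-60 side, PSMB5, PSMB4 and PSMD4 farthest, whereas PSMB8, PSMB9, PSMB10, PSME1, PSME2, PSMA1 and PSMD5 lie on the Molm-14 side.

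In HL-60 cells at 500 pM DSA the immunosubunits PSMB9 and PSMB8 and the PA28 pair PSME1 and PSME2 rose, while most other members fell relative to the median gene. Members together made up 0.9685% and 0.9791% of all counts at 500 pM, against 0.9294% and 0.939% in controls, so their summed share did not fall. Under scaling by total counts 18 members were higher and 14 lower. Of 48 members, 9 were higher and 29 lower than in the HL-60 controls, with a median log2 fold change of -0.16, beside 35.8% higher, 37.8% lower and a median of 0 over all genes tested. PSMB9 showed the largest increase. PSMB9 replaces PSMB6 in the immunoproteasome and lies in the MHC class II region (chromosome 6, 32844136 to 32859851, hg38). It had 17.0 and 16.5 CPM without DSA, 32.0 and 36.2 CPM at 112.7 pM and 48.3 and 47.7 CPM at 500 pM, and both treated groups lay above the controls without overlap. The log2 fold change at 500 pM was 1.52 ± 0.067 (adjusted p = 3.31e-13, edgeR), a 2.87-fold increase. PSMB8, its neighbour on the opposite strand, had 103 and 102 CPM without DSA, 127 and 131 CPM at 112.7 pM and 137 and 132 CPM at 500 pM, a log2 fold change of 0.39 ± 0.036 at 500 pM. PSMB8 was therefore higher than its controls in all 4 treated libraries, by less than PSMB9 was on the log2 scale. PSMB10, the remaining immunosubunit, had 61.6 and 64.6 CPM without DSA, 69.3 and 71.1 CPM at 112.7 pM and 55.8 and 57.1 CPM at 500 pM. It was higher than control at 112.7 pM (0.15 ± 0.042) and lower at 500 pM (-0.16 ± 0.043, adjusted p = 0.00230), but the fall missed the threshold with DESeq2 (adjusted p = 0.0774) and turned to 0.023 when libraries were scaled by total counts. A protein-coding gene without a symbol on the same strand shares 39.4% of the exon bases of PSMB10. The rise at 112.7 pM missed the threshold without the first control library (adjusted p = 0.0598) or without the second low dose library (adjusted p = 0.0584).

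The exons of PSMB8 and PSMB9 share 139 bases, and the antisense transcript PSMB8-AS1 overlaps both. No source used here states whether reads were counted by strand, and reads of these genes may be split between them. PSMB8-AS1 shares 602 exon bases with PSMB8 and 174 with PSMB9. It had 9.74 and 10.8 CPM at 500 pM, against 7.75 and 6.72 CPM in controls, so it was higher as well. As it is not protein-coding, no log2 fold change was taken to set beside those of PSMB8 and PSMB9. The part of shared reads in their increases was not tested.

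Among the activators, PSME1 and PSME2 rose while PSME3 and PSME4 fell. PSME1 had 73.6 and 74.4 CPM without DSA, 112 and 113 CPM at 112.7 pM and 137 and 127 CPM at 500 pM, a log2 fold change of 0.83 ± 0.043 at 500 pM (adjusted p = 3.12e-12, edgeR). PSME2 had 80.1 and 79.9 CPM without DSA, 120.0 and 128 CPM at 112.7 pM and 170.3 and 155 CPM at 500 pM, a log2 fold change of 1.02 ± 0.045 (adjusted p = 3.33e-13). These 2 genes are neighbours on chromosome 14, with 4.395 kb between them, and every treated library exceeded every control library for both. RNF31, which overlaps PSME2 by 216 exon bases on the other strand, changed by 0.18 on the same scale. PSME3, which forms the nuclear PA28 gamma ring, had 430.5 and 432 CPM without DSA, 369 and 375 CPM at 112.7 pM and 299 and 288 CPM at 500 pM, with a log2 fold change of -0.56 ± 0.032 at 500 pM. PSME4, the activator PA200, had 124 and 119.7 CPM without DSA, 122 and 109.6 CPM at 112.7 pM and 96.9 and 107 CPM at 500 pM (-0.25 ± 0.050 at 500 pM). PSMF1, an inhibitor of the core, had a log2 fold change of -0.40 ± 0.039. PSMC3IP, which acts with the recombinase DMC1 in meiosis and is no proteasome subunit, rose with 21.2 and 22.0 CPM without DSA, 25.5 and 24.9 CPM at 112.7 pM and 35.6 and 33.2 CPM at 500 pM (0.67 ± 0.060). It shares 30.1% of its exon bases with MLX, which fell by 0.20 on the log2 scale.

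**Figure D2:**
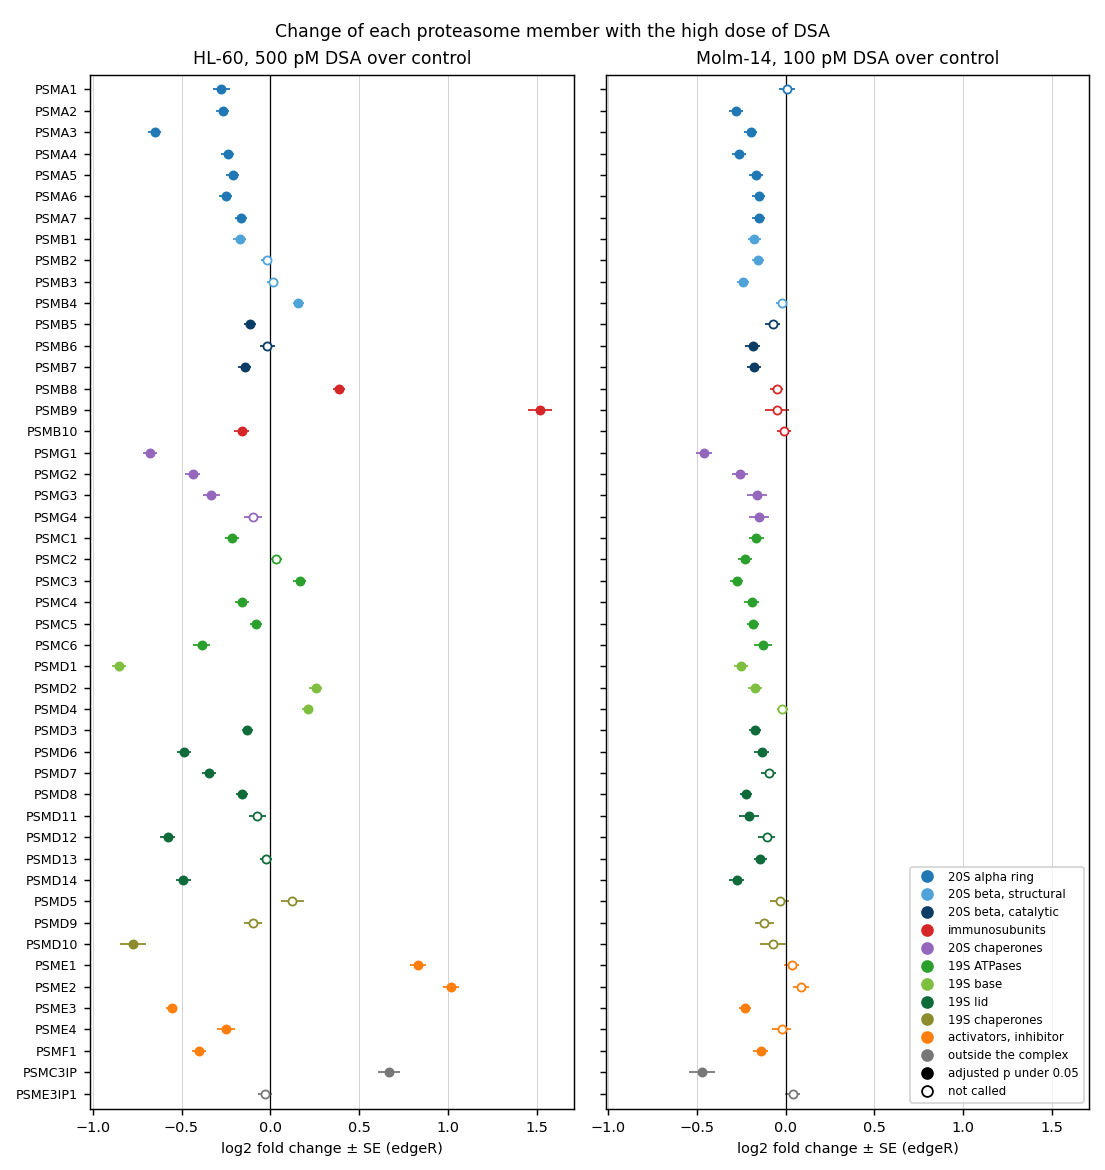
Log2 fold change ± SE (edgeR, n = 2 libraries per group) of the 48 tested members at the high dose of DSA, HL-60 at 500 pM on the left and Molm-14 at 100 pM on the right. Colors give the role, filled points are called and open points are not. In HL-60 cells PSMB9, PSME2, PSME1, PSMC3IP and PSMB8 lie to the right of most members, whereas in Molm-14 cells no member is called higher; under scaling by total counts 9 of the 29 HL-60 decreases change sign.

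The promoters of PSMB9, PSMB10, PSME1 and PSME2 are shown because PSMB9, PSME1 and PSME2 rose together while PSMB10 did not rise at the high dose. They run from 250 bases before to 50 after the start (RefSeq, GRCh38.p14), printed 5′ to 3′ on the strand of the gene, and the RefSeq start of PSMB9 lies inside the longer gene of GENCODE. Capitals mark matches, on either strand, to the interferon-stimulated response element (GAAA, any 2 bases, GAAA), the antioxidant response element TGACNNNGC, the gamma-activated site TTCNNNGAA and the CCAAT box.
PSMB9, chr6:32853942-32854241, plus strand: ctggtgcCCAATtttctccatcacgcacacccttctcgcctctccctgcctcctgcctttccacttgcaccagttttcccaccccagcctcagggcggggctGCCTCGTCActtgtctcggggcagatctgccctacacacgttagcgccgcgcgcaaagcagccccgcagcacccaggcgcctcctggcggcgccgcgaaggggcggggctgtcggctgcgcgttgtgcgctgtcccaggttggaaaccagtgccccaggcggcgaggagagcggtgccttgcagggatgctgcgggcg
PSMB10, chr16:67936801-67937100, minus strand: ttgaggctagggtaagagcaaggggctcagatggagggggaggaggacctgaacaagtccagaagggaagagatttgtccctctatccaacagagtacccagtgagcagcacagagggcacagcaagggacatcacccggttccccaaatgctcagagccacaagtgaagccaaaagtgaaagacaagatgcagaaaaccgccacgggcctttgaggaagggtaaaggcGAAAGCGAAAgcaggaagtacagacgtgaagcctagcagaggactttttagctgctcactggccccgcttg
PSME1, chr14:24135944-24136243, plus strand: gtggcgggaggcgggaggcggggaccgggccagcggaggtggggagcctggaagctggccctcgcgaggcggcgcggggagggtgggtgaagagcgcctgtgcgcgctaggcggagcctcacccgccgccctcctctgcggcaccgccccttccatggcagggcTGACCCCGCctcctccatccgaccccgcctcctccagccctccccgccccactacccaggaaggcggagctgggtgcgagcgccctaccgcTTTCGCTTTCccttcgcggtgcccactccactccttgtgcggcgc
PSME2, chr14:24146561-24146860, minus strand: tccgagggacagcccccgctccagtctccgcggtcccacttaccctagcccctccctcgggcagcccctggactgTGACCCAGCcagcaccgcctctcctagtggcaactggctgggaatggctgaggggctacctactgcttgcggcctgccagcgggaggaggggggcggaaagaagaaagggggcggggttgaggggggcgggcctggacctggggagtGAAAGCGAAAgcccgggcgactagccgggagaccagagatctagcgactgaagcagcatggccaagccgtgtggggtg

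The windows of PSMB10, PSME1 and PSME2 each held the letters of the interferon-stimulated response element, as GAAAGCGAAA in PSMB10 and PSME2 and as its reverse complement TTTCGCTTTC in PSME1, and no matches overlapped. The match began 21 bases before the start in PSMB10, 28 before it in PSME2 and at base 6 after it in PSME1. That of PSMB9 held a CCAAT box and an antioxidant response element but not these letters in this window. Over the 44 members found in the table, 6 promoters (13.6%) held the interferon-stimulated response element, against 3.6% of all 27305 promoters of the same length. The other 3 with it were PSMA4, PSMB4 and PSMG4, whose log2 fold changes in HL-60 cells at 500 pM were -0.24, 0.16 and -0.10. Of these, PSMB4 was higher, PSMA4 lower and PSMG4 not called. The antioxidant response element stood in 13 of 44 (29.5%) against 13.6% of all promoters, the CCAAT box in 21 (47.7%) against 35.7%, and the gamma-activated site in 5 (11.4%) against 7.9%. A match is a description of the letters, not evidence of binding.

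**Figure D3:**
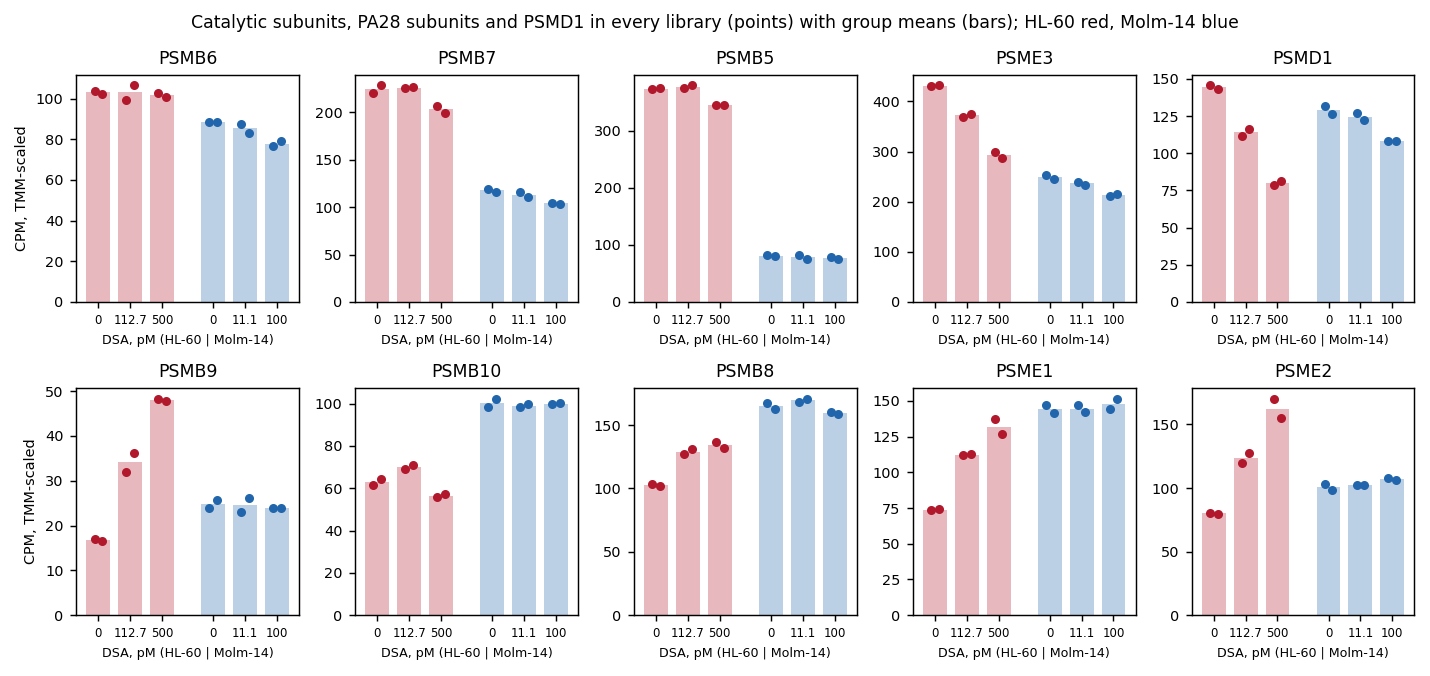
TMM-scaled CPM in every library (points) and the group mean (bars, n = 2) of the 6 catalytic subunits, PSME1, PSME2, PSME3 and PSMD1, with the dose of DSA in pM on the x axis, HL-60 in red and Molm-14 in blue. In HL-60 cells PSMB9, PSME1 and PSME2 climb with dose, PSME3 and PSMD1 decline, and PSMB10 is highest at 112.7 pM; in Molm-14 cells the 3 immunosubunits stay nearly level.

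The constitutive core and the cap moved in both directions in HL-60 cells at 500 pM, and the decreases were more numerous. All 7 detected alpha subunits were lower (-0.65 to -0.17), beside 37.8% of all genes tested, although PSMA7 turned to 0.017 under scaling by total counts. PSMA3 had 190.0 and 189 CPM without DSA, 148 and 156 CPM at 112.7 pM and 121 and 120.4 CPM at 500 pM, a log2 fold change of -0.65 ± 0.037 (adjusted p = 1.18e-11, edgeR), the largest decrease in the core. PSMA2 had 225 and 230.0 CPM without DSA, 214 and 227 CPM at 112.7 pM and 187 and 191 CPM at 500 pM (-0.27 ± 0.037). Of the 7 constitutive beta subunits, PSMB4 was higher (0.16 ± 0.029) and PSMB1, PSMB5 and PSMB7 lower. PSMB5 had 373 and 375 CPM without DSA, 375 and 379.5 CPM at 112.7 pM and 346 and 345 CPM at 500 pM, a log2 fold change of -0.11 ± 0.035. PSMB7 had 221 and 229 CPM without DSA, 225 and 227 CPM at 112.7 pM and 207 and 199.8 CPM at 500 pM (-0.14 ± 0.036). PSMB6 had 104 and 102 CPM without DSA, 99.5 and 106 CPM at 112.7 pM and 103 and 101 CPM at 500 pM and was not called (-0.018 ± 0.041, 95% interval -0.10 to 0.069). The constitutive active sites thus differed from control by less than 0.15 on the log2 scale, and the values of PSMB5 and PSMB7 turned to 0.070 and 0.039 under scaling by total counts. The call of PSMB5 was also lost with DESeq2 (adjusted p = 0.147).

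Among 17 subunits of the cap, 3 were higher and 11 lower, beside 35.8% and 37.8% of all genes tested. The decreases of PSMC4, PSMC5, PSMD3 and PSMD8 changed sign under scaling by total counts. PSMD1, the large scaffold of the base, showed the largest decrease of any member. It had 146 and 143 CPM without DSA, 112 and 117 CPM at 112.7 pM and 78.9 and 81.3 CPM at 500 pM, a log2 fold change of -0.85 ± 0.039 (adjusted p = 6.36e-13, edgeR), without overlap between any of the 3 dose groups. PSMD2, the other scaffold of the base, was higher with 0.26 ± 0.036, as was PSMD4 with 0.21 ± 0.031 and the ATPase PSMC3 with 0.17 ± 0.037. PSMC3 had 185 and 189 CPM without DSA, 194 and 205 CPM at 112.7 pM and 213 and 207 CPM at 500 pM. In the lid PSMD12 had 110.3 and 109 CPM without DSA, 80.9 and 84.3 CPM at 112.7 pM and 70.3 and 76.3 CPM at 500 pM (-0.58 ± 0.044). PSMD14, the deubiquitinase, changed by -0.49 ± 0.040 and PSMD6 by -0.49 ± 0.039. The ATPase PSMC6 changed by -0.39 ± 0.047. Subunits of a single sub-complex therefore moved apart from each other, from -0.85 to 0.26 within the base scaffold and receptor alone. Of the assembly chaperones, PSMG1 had 127 and 133 CPM without DSA, 112 and 110.1 CPM at 112.7 pM and 80.7 and 82.0 CPM at 500 pM (-0.68 ± 0.041). PSMG2 and PSMG3 changed by -0.44 ± 0.043 and -0.33 ± 0.048, and PSMG4 was not called (-0.10 ± 0.052). PSMD10, the cap chaperone gankyrin, had 45.2 and 45.2 CPM without DSA, 30.5 and 33.2 CPM at 112.7 pM and 24.6 and 27.9 CPM at 500 pM, with -0.77 ± 0.071 at 500 pM.

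The direction of the smaller HL-60 changes depended on the scaling. TMM placed the median gene of this comparison at 0 and scaling by total counts alone placed it at 0.1759, so the changes given here are relative to the median gene. Under total counts 18 members were higher and 14 lower in place of 9 and 29, and 9 of the 29 decreases changed sign. No member called higher with TMM changed sign. With a fold change over 2 as well, PSMB9 and PSME2 remained called.

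At 112.7 pM the immunosubunits and the PA28 pair of HL-60 cells rose as well. In all 12 members were higher and 17 lower than control (median -0.034), beside 24.2% and 27.4% of all genes tested, and the split was 15 and 12 under total counts and 13 and 12 with RLE factors. PSMB9 had a log2 fold change of 1.03 ± 0.070, PSME2 0.63 ± 0.046, PSME1 0.60 ± 0.044 and PSMB8 0.33 ± 0.036. All 3 immunosubunits were higher at this dose, while none of the 3 constitutive active sites was called, with 0.014 for PSMB5, 0.0030 for PSMB6 and 0.0096 for PSMB7. PSMD10 (-0.50 ± 0.069), PSMD12 (-0.41 ± 0.044) and PSMD1 (-0.34 ± 0.038) had the largest decreases. Leaving out the first control library reduced the 12 increases to 6, and leaving out the second low dose library reduced them to 7.

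Between the 2 doses of HL-60 cells, 6 members were higher and 27 lower at 500 pM than at 112.7 pM, beside 25.9% and 26.8% of all genes, and under total counts the split was 13 and 11. PSMB9 (0.48 ± 0.066), PSMC3IP (0.45 ± 0.064), PSME2 (0.38 ± 0.046) and PSME1 (0.23 ± 0.044) rose further. PSMB8 did not pass the test (0.057 ± 0.037, 95% interval -0.021 to 0.14), and PSMB10 was lower at the higher dose (-0.31 ± 0.045, adjusted p = 9.78e-06, edgeR). PSMD1 (-0.51 ± 0.041) and PSMG1 (-0.45 ± 0.042) fell further. The comparisons of each dose with control share the control libraries and are given side by side for that reason. By group means 11 members climbed at each step of dose in HL-60 cells, 28 declined at each step and 9 did neither. The same count over all genes was not made.

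In Molm-14 cells 100 pM DSA was accompanied by a small decrease of most core and cap genes and by no called change of the immunosubunits or of PSME1 and PSME2. Of 48 members 32 were lower and 0 higher, with a median log2 fold change of -0.16, beside 21.9% lower, 22.9% higher and a median of 0.0038 over all genes tested. The count of 0 higher members was also 0 at an unadjusted p under 0.05 with edgeR, with limma-voom and with DESeq2 at the adjusted threshold, and it was 1 under scaling by total counts. The decreases included 11 of 14 constitutive core genes, all 6 ATPases, 6 of 8 lid subunits and all 4 PSMG chaperones, and none reached a fold change of 2. The calls of the ATPase PSMC6 and of PSMG3 were lost with DESeq2 (adjusted p = 0.0632 and 0.0625). PSMG1 had 62.5 and 63.9 CPM without DSA, 58.1 and 61.8 CPM at 11.1 pM and 45.7 and 46.3 CPM at 100 pM, a log2 fold change of -0.46 ± 0.045 (adjusted p = 1.20e-07, edgeR). PSMA2 had 138 and 138 CPM without DSA, 139.9 and 134 CPM at 11.1 pM and 115 and 113 CPM at 100 pM (-0.28 ± 0.038). PSMC3 had 146 and 145 CPM without DSA, 132 and 134 CPM at 11.1 pM and 118 and 123 CPM at 100 pM (-0.28 ± 0.038). In these 3 genes both libraries at 100 pM lay below all 4 others. PSMC3IP, outside the complex, had 13.9 and 15.0 CPM without DSA, 15.4 and 14.8 CPM at 11.1 pM and 10.7 and 10.1 CPM at 100 pM and the largest decrease (-0.47 ± 0.075).

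The active sites of Molm-14 cells at 100 pM differed in their calls. PSMB6 had 76.6 and 79.0 CPM at 100 pM, against 88.6 and 88.4 CPM in controls (-0.19 ± 0.042). PSMB7 had 105 and 103 CPM at 100 pM, against 119 and 116 CPM in controls (-0.18 ± 0.039). PSMB5 was not called, with 78.9 and 75.5 CPM at 100 pM, against 82.2 and 80.1 CPM in controls and an interval of -0.16 to 0.015. For the immunosubunits the 95% intervals of the log2 fold change were -0.12 to 0.024 for PSMB8, -0.20 to 0.10 for PSMB9 and -0.088 to 0.076 for PSMB10. None of these intervals reached the increase of PSMB9 or PSMB8 in HL-60 cells. PSMB9 had 23.8 and 25.7 CPM without DSA, 23.1 and 26.1 CPM at 11.1 pM and 24.0 and 23.9 CPM at 100 pM. PSMB8 had 168 and 163 CPM without DSA, 168 and 171 CPM at 11.1 pM and 160.1 and 159 CPM at 100 pM. PSMB10 had 98.4 and 102 CPM without DSA, 98.2 and 99.8 CPM at 11.1 pM and 99.6 and 100.3 CPM at 100 pM. The treated libraries of PSMB9 and PSMB10 at 100 pM lay within the range of their controls. PSME1 had 147 and 142 CPM without DSA, 147 and 142 CPM at 11.1 pM and 145 and 152 CPM at 100 pM. PSME2 had 103 and 98.4 CPM without DSA, 103 and 102 CPM at 11.1 pM and 108 and 106 CPM at 100 pM. Neither was called (0.035 ± 0.041 and 0.089 ± 0.046), though PSME2 passed the test under scaling by total counts (0.12, adjusted p = 0.0314). PSME3, the nuclear activator, was lower with 211 and 215 CPM at 100 pM, against 253 and 245 CPM in controls (-0.23 ± 0.033), and PSME4 was not called, with 69.0 and 72.1 CPM at 100 pM, against 72.7 and 70.4 CPM in controls. PSMD1 was lower with 108 and 108 CPM at 100 pM, against 131 and 126 CPM in controls (-0.25 ± 0.038), as was PSMA3 with 111 and 114 CPM at 100 pM, against 130.4 and 127 CPM in controls (-0.20 ± 0.038). PSMD10 (29.2 and 30.5 CPM at 100 pM, against 32.3 and 30.3 CPM in controls) and PSMD12 (61.2 and 61.7 CPM at 100 pM, against 67.9 and 64.3 CPM in controls) were not called, with -0.069 ± 0.072 and -0.11 ± 0.046.

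At 11.1 pM no member of Molm-14 cells was called in either direction with edgeR, beside 0.969% of all genes higher and 0.238% lower. The counts were also 0 with DESeq2 and limma-voom, at an unadjusted p under 0.05 there were 0 higher and 5 lower members, and the log2 fold changes lay between -0.13 and 0.088. With no filter on low counts PSMC3 was called lower (-0.14, adjusted p = 0.0358). At 100 pM against 11.1 pM 27 members were lower and 0 higher, beside 18.5% and 19.6% of all genes. Here too no member was higher at an unadjusted p under 0.05 with edgeR, or at the adjusted threshold with DESeq2 or limma-voom. Leaving out the first library at 100 pM reduced the 27 decreases to 16. By group means 32 members declined at each step of dose in Molm-14 cells, 2 climbed and 14 did neither. The same count over all genes was not made. Because no member was called at 11.1 pM, the first step does not show a decline of single members.

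The difference between the lines was tested directly as the change in HL-60 cells minus the change in Molm-14 cells. At the high doses 13 members had a more positive change in HL-60 cells and 15 a more negative one, beside 25.1% and 30.3% of all genes. The split was 27 and 6 under total counts, which moved the median gene of this comparison to 0.1269, 18 and 12 with RLE factors, 16 and 11 with DESeq2 and 17 and 13 over genes with a mean of 50 or more counts. The largest positive differences were those of PSMB9 (1.57 ± 0.097), PSMC3IP (1.14 ± 0.097) and PSME2 (0.93 ± 0.064), followed by PSME1 (0.80 ± 0.060) and PSMC3 (0.44 ± 0.053). PSMC3 was higher in HL-60 and lower in Molm-14 cells at the high dose. The largest negative differences were those of PSMD10 (-0.70 ± 0.10), PSMD1 (-0.60 ± 0.055) and PSMD12 (-0.47 ± 0.064). For PSMB5 and PSMA2 the difference missed the threshold, with 95% intervals of -0.16 to 0.072 and -0.10 to 0.12.

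The high doses were 500 pM and 100 pM, so HL-60 cells at 112.7 pM were also set against Molm-14 cells at 100 pM. The low dose of each line is close to the inhibitory concentration that the paper reports for its viability. HL-60 cells were thus near that concentration in this pair, and Molm-14 cells were well above theirs. The pair is near-equal in pM but not relative to the sensitivity of each line, and the part of this in the differences was not tested. At these near-equal doses 21 members had a more positive change in HL-60 cells and 3 a more negative one, beside 16.7% and 21% of all genes, with a median difference of 0.11 over members and -0.016 over all genes. PSMB9 (1.08 ± 0.099), PSMC3IP (0.69 ± 0.098), PSME1 (0.57 ± 0.060), PSME2 (0.55 ± 0.065) and PSMB8 (0.38 ± 0.051) differed again. PSMD1, whose change differed at the high doses, was not called here (-0.089 ± 0.054, 95% interval -0.20 to 0.025). The 3 more negative members were PSMD10, PSMD12 and PSMA1, with -0.43 ± 0.10, -0.30 ± 0.064 and -0.23 ± 0.064. The call of PSMA1 was lost without the second Molm-14 control (adjusted p = 0.0545) or the first HL-60 library at 112.7 pM (adjusted p = 0.0538).

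Summed per length, the RNA share of the immunosubunits at the high dose lay above that of the controls in both lines. PSMB8, PSMB9 and PSMB10 together were 21.0 and 21.1% of the TPM of the 6 catalytic subunits in HL-60 libraries without DSA, 24.5 and 24.9% at 112.7 pM and 25.5 and 25.9% at 500 pM. In Molm-14 cells the share was 46.6 and 47.7% without DSA, 47.5 and 49.1% at 11.1 pM and 49.0 and 49.5% at 100 pM. HL-60 libraries at the high dose therefore stayed below every Molm-14 library. In Molm-14 cells the immunosubunits did not rise at 100 pM. Their mean TPM was 168 for PSMB8, 29.6 for PSMB9 and 142 for PSMB10, against 178, 29.9 and 146 in controls. The Molm-14 share lay higher beside lower PSMB6 (129 against 149 TPM) and PSMB7 (136 against 157 TPM). In HL-60 cells PSMB8 (156 against 115 TPM) and PSMB9 (65.1 against 22.4 TPM) were higher at 500 pM and PSMB10 lower (97.6 against 115 TPM). The ratio of PSMB9 to PSMB6, which compete for the same place, was 0.351 and 0.348 at 500 pM against 0.125 and 0.119 in HL-60 controls, and 0.234 and 0.225 at 100 pM against 0.195 and 0.207 in Molm-14 controls. For PSMB8 and PSMB5 the ratio was 0.355 and 0.357 at 500 pM against 0.258 and 0.257 in HL-60 controls, and 1.92 and 2.02 at 100 pM against 1.96 and 1.98 in Molm-14 controls. PSME1 and PSME2 made up 45.9 and 46.1% of the TPM of the 4 PSME genes in HL-60 cells without DSA, 59.6 and 60.5% at 112.7 pM and 71.3 and 69.5% at 500 pM, while the 6 Molm-14 libraries lay between 70.6% and 74.7%. For PSMB10 and PSMB7 the ratio was 0.317 and 0.342 at 500 pM against 0.359 and 0.366 in HL-60 controls, and 1.02 and 1.07 at 100 pM against 0.8842 and 0.9751 in Molm-14 controls, so it was lower in HL-60 libraries at 500 pM and higher in Molm-14 libraries at 100 pM than in their controls. These are shares of RNA and were not tested.

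**Figure D4:**
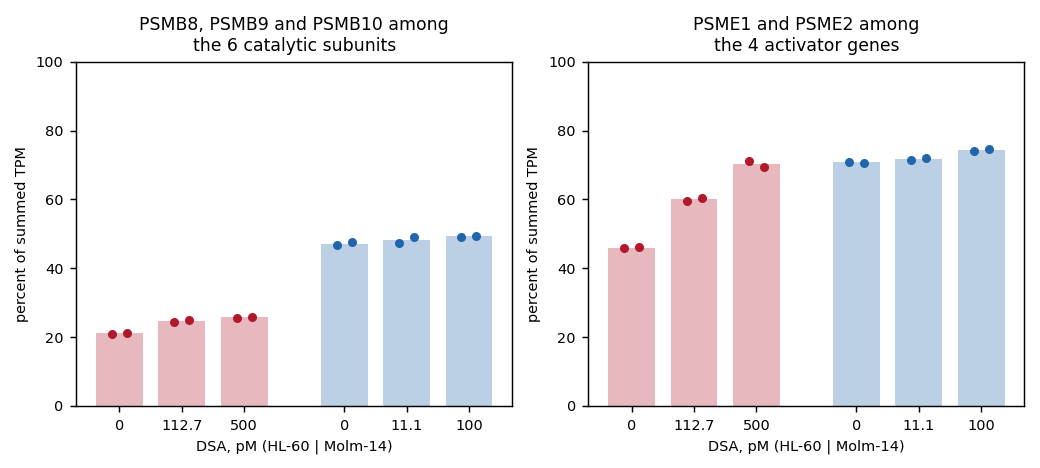
Percent of summed TPM in every library (points) and the group mean (bars, n = 2), with the dose of DSA in pM on the x axis, HL-60 in red and Molm-14 in blue. The left panel shows PSMB8, PSMB9 and PSMB10 among the 6 catalytic subunits, which reach 25.5% and 25.9% in HL-60 cells at 500 pM, and the right panel shows PSME1 and PSME2 among the 4 PSME genes, which reach 71.3% and 69.5%.

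Base composition of the genes was set beside their changes, because DSA binds at adenine. The share of A and T over the span of a member ran from 37.9% in PSMB10 to 64.7% in PSMD14. In HL-60 cells at 500 pM the members with more A and T had lower log2 fold changes, with a Spearman correlation of -0.59 over 48 members and -0.39 over all 13422 genes. At 112.7 pM it was -0.61 over members. In Molm-14 cells at 100 pM it was -0.13 over members and -0.11 over all genes. Of the 16 members richest in A and T (59.0% to 64.7%), 13 were lower and 0 higher in HL-60 cells at 500 pM with edgeR, and the median was -0.33. Over all genes tested, of any base composition, 37.8% were lower and 35.8% higher. The share among other genes equally rich in A and T was not taken, so this skew is not shown to be particular to members. None of these 16 was higher at an unadjusted p under 0.05 with edgeR or at the adjusted threshold with limma-voom, and 1, PSMD5, was higher with DESeq2. Of the 16 poorest in A and T, 6 were higher and 7 lower with a median of -0.050. PSMD1 (62.1%, 116 kb), PSMD10 (62.3%, 7.34 kb), PSMA3 (59.7%, 27.2 kb) and PSMG1 (59.5%, 8.72 kb) fell the most and all lie among the richest 16. PSMB9 (49.8%), PSME2 (47.7%) and PSME1 (42.6%) lie among the poorest 16. With the length of the span the change in HL-60 cells had a Spearman correlation of -0.36 over members and -0.12 over all genes at 500 pM, and of -0.39 and -0.15 at 112.7 pM. Points share libraries, and replicates of a group also differed with the A and T share: the correlation of the log2 ratio between the 2 libraries at 500 pM with that share was -0.55, and between the 2 HL-60 controls it was 0.37. The SD of that ratio over members was 0.0786 at 500 pM, against 0.4376 for the log2 fold change of 500 pM over control. Each library at 500 pM set against each control gave a correlation between -0.63 and -0.53. The part of library composition in this relation was not tested.

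**Figure D5:**
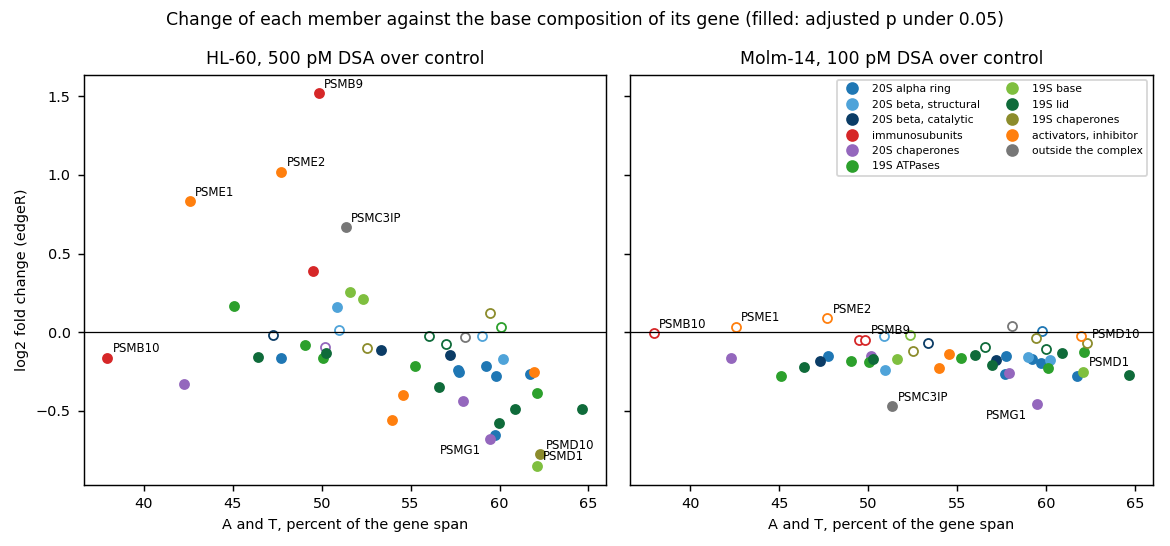
Log2 fold change of the 48 members at the high dose (y axis) against the percent of A and T over the span of the gene (x axis), HL-60 on the left and Molm-14 on the right, colored by role, with filled points for adjusted p under 0.05. In HL-60 cells the points descend to the right (Spearman correlation -0.59), PSMD1 and PSMD10 lowest, and in Molm-14 cells they form a nearly level band (Spearman correlation -0.13).

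Factors that work with the proteasome were read from lists of 16 partners, 11 genes of the NRF1 and NRF2 axis, 6 ubiquitin and E1 genes and 9 interferon and antigen processing genes. The lists were chosen with earlier results of these data known, so their shares are descriptions and add no independent support. Of the 16 partners 2 were higher at 500 pM in HL-60 cells and 12 lower (median -0.32), beside 35.8% and 37.8% of all genes tested. In Molm-14 cells at 100 pM 9 were lower and 7 not called (median -0.16), beside 21.9% lower among all genes tested. POMP, the maturation factor of the core, had 108 and 106 CPM without DSA, 87.0 and 89.2 CPM at 112.7 pM and 80.7 and 88.4 CPM at 500 pM in HL-60 cells (-0.33 ± 0.046 at 500 pM). In Molm-14 cells it had 99.7 and 103 CPM at 100 pM, against 119 and 122 CPM in controls (-0.25 ± 0.045). ADRM1, a ubiquitin receptor of the cap, had 323 and 342 CPM without DSA, 292 and 311 CPM at 112.7 pM and 239 and 246 CPM at 500 pM in HL-60 cells (-0.46 ± 0.042). In Molm-14 cells ADRM1 had 86.6 and 82.3 CPM at 100 pM, against 97.0 and 105 CPM in controls (-0.25 ± 0.047). SEM1, the smallest lid subunit, was lower in Molm-14 cells (-0.21 ± 0.044) with 75.2 and 76.8 CPM at 100 pM, against 89.9 and 85.4 CPM in controls, and was not called in HL-60 cells, with 105 and 108 CPM without DSA, 113 and 115 CPM at 112.7 pM and 103 and 107 CPM at 500 pM (-0.025 ± 0.043 at 500 pM).

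NFE2L1, the factor that induces proteasome genes when the proteasome is impaired, had 214 and 212 CPM without DSA, 222 and 232 CPM at 112.7 pM and 225 and 242 CPM at 500 pM in HL-60 cells (0.13 ± 0.040 at 500 pM, adjusted p = 0.00599, edgeR, and 0.160 without the second library at 500 pM). It was not called in Molm-14 cells, with 100.0 and 98.1 CPM at 100 pM, against 102 and 104 CPM in controls (-0.052 ± 0.044). NFE2L2, the related regulator of antioxidant genes, was not called in HL-60 cells, with 49.4 and 49.3 CPM without DSA, 48.2 and 44.7 CPM at 112.7 pM and 48.0 and 48.8 CPM at 500 pM (-0.026 ± 0.048), or in Molm-14 cells, with 59.2 and 57.6 CPM at 100 pM, against 60.7 and 59.6 CPM in controls (-0.044 ± 0.046). Of the 11 genes of this axis 4 were higher at 500 pM in HL-60 cells and 5 lower, and 2 were higher at 100 pM in Molm-14 cells and 1 lower. The HL-60 shares of 36.4% and 45.5% lay near the 35.8% and 37.8% of all genes tested, and the Molm-14 shares of 18.2% and 9.09% did not exceed the 22.9% and 21.9% of all genes. Of 6 ubiquitin and E1 genes 2 were lower in HL-60 cells at 500 pM and 4 not called, a share of 33.3% beside 37.8% of all genes, and in Molm-14 cells at 100 pM 1 was higher and 2 lower. Of the 9 interferon and antigen processing genes 7 were higher and 2 lower at 500 pM in HL-60 cells, beside 35.8% and 37.8% of all genes. NLRC5 was among the 2 lower, with 91.7 and 93.0 CPM at 500 pM, against 107 and 104 CPM in controls. In Molm-14 cells at 100 pM 6 of the 9 were higher and 1 lower, beside 22.9% and 21.9%. In untreated HL-60 against untreated Molm-14 cells 6 of the 9 were higher and 3 lower, beside 43.9% and 40.1%. IRF1, a transcription factor of immunosubunit genes, had 25.2 and 26.8 CPM without DSA, 37.7 and 35.1 CPM at 112.7 pM and 41.2 and 42.4 CPM at 500 pM in HL-60 cells (0.68 ± 0.062). In Molm-14 cells IRF1 had 31.7 and 28.9 CPM without DSA, 31.4 and 28.9 CPM at 11.1 pM and 28.4 and 26.9 CPM at 100 pM (-0.13 ± 0.064, not called). TAP1, the peptide transporter encoded beside PSMB9, had 51.8 and 48.9 CPM without DSA, 63.8 and 61.7 CPM at 112.7 pM and 74.0 and 73.6 CPM at 500 pM in HL-60 cells (0.55 ± 0.052). In Molm-14 cells TAP1 had 37.8 and 33.0 CPM without DSA, 34.5 and 34.4 CPM at 11.1 pM and 45.8 and 45.0 CPM at 100 pM (0.36 ± 0.057). TAP1 thus rose in both lines while PSMB9 rose in HL-60 cells and was not called in Molm-14 cells. The line difference was 0.20 ± 0.077 for TAP1 (adjusted p = 0.0385), with 0.0702 to 0.348 on leaving out single libraries other than the first HL-60 control and second Molm-14 control.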

How the data were processed

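The values were the deposited expected counts and TPM of 60754 genes in each of 12 libraries. Per the labels and the methods, the authors trimmed reads with Trim Galore (0.60), mapped them to hg38 with STAR (2.7) and estimated counts with RSEM (1.31) on GENCODE. TPM, which the authors' RSEM run divides by effective length (also deposited, among the other columns) and scales to a total over all genes, was used only for levels between genes. Symbols and coordinates came from GENCODE release 44, which matched 60261 identifiers. The members and lists were chosen with earlier results of these data known.

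Expected counts were rounded. edgeR 4.0.16 in R 4.3.3 tested 13422 protein-coding genes kept by filterByExpr, with TMM factors, 1 mean per group, glmQLFit over all 12 libraries and Benjamini-Hochberg adjustment over all genes tested. The authors fitted limma-voom, which was an alternative here (limma 3.58.1), as were DESeq2 1.42.0, RLE factors, total counts, no filter, only genes averaging 50 or more counts, every gene type, fits of the compared groups alone, the replicate block, summed pseudogene copies (44 copies of 17 members), a fold change over 2 and each library left out. The SE is the log2 fold change over the square root of F. The method was tested on simulated data. Pairs of replicates differed beyond sampling noise, so none was counted as a duplicate.

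Genes named with values in each library were the catalytic subunits, the PSME activators, the 4 largest increases and 4 largest decreases that passed the test in each high dose comparison (mean count 50 or more), the 3 largest line differences each way and 8 context genes (1 of them not reported here), with up to 3 examples per role by p.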

Additional observations from a re-analysis of the deposited data

Results flagged for a closer look

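Changes of named members that differed between the lines by the direct edgeR test are listed here as the log2 change in HL-60 cells minus that in Molm-14 cells, all with an adjusted p under 0.05 and 2 libraries per group. At the high doses (500 pM against 100 pM) the difference was 1.57 for PSMB9, 1.14 for PSMC3IP, 0.93 for PSME2, 0.80 for PSME1, 0.44 for PSMC3, 0.44 for PSMB8 and 0.17 for PSMB6. It was -0.70 for PSMD10, -0.60 for PSMD1, -0.47 for PSMD12, -0.45 for PSMA3, -0.33 for PSME3, -0.23 for PSME4, -0.22 for PSMG1 and -0.15 for PSMB10. PSMB9 rose in both HL-60 libraries, and the 2 treated Molm-14 libraries lay within the range of their controls. PSMB10 (adjusted p = 0.0296) missed the threshold with DESeq2 (0.313) and without the first Molm-14 control (0.112), the second Molm-14 library at 100 pM (0.0646), the second HL-60 control (0.132) or the first HL-60 library at 500 pM (0.0735). PSMB6 (adjusted p = 0.0215) missed it on leaving out any of 5 single libraries, both Molm-14 controls among them (0.0603 to 0.0965), and PSME4 (adjusted p = 0.0122) on leaving out any of 3 (0.0514 to 0.0620). With DESeq2 PSMG1 missed it as well (adjusted p = 0.0753).

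At the near-equal doses (112.7 pM against 100 pM) the difference was 1.08 for PSMB9, 0.69 for PSMC3IP, 0.57 for PSME1, 0.55 for PSME2, 0.38 for PSMB8, 0.37 for PSMC3, 0.24 for PSMA2, 0.23 for PSMG1, 0.19 for PSMB6, 0.19 for PSMB7 and 0.16 for PSMB10, and it was -0.43 for PSMD10 and -0.30 for PSMD12. At these doses PSMB10 missed the threshold on leaving out any of 5 single libraries (adjusted p = 0.0705 to 0.152) and PSMB6 on leaving out any of 4 (0.0504 to 0.117). PSMG1 and PSMB10 had the opposite sign at the 2 pairs of doses. Both sets of differences share the Molm-14 libraries and the HL-60 controls. The near-equal doses are alike in pM but not relative to the sensitivity of each line.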

How the results depend on the processing

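Of 7504 log2 fold changes of members and context genes under the alternatives, 6761 kept their direction and side of the threshold, 284 lost the call, 165 gained one, 273 uncalled values moved across 0 and 21 reversed, all 21 under scaling by total counts alone, which moved the median gene of HL-60 cells at 500 pM to 0.1759. Those of the genes reported here were, for HL-60 at 500 pM against control, 0.011 for PSMB1, 0.023 for PSMC4, 0.101 for PSMC5, 0.024 for PSMD8, 0.070 for PSMB5, 0.017 for PSMA7, 0.054 for PSMD3, 0.111 for PSMD11, 0.158 for NFE2L2, 0.163 for PSMB2, 0.159 for SEM1, 0.039 for PSMB7, 0.166 for PSMB6, 0.153 for PSME3IP1, 0.159 for PSMD13 and 0.023 for PSMB10. For HL-60 at 500 pM against 112.7 pM they were 0.029 for PSMD3, 0.077 for PSMB2 and 0.084 for PSMD13, and for the line difference at the high dose 0.135 for PSMA7. Counts of members under total counts alone were 1 higher (0 with TMM) in Molm-14 at the high dose, 18 higher (9) and 14 lower (29) in HL-60 at the high dose, 13 higher (6) and 11 lower (27) in HL-60 high against low dose, and 27 higher (13) and 6 lower (15) for the line difference. A fold change over 2 left 2 higher and 0 lower in HL-60 at the high dose, 1 and 0 at the low dose, 0 and 0 between its doses, 0 lower in Molm-14 at the high dose and between its doses, 9 higher and 1 lower between the controls, and 2 and 0, then 1 and 0, for the 2 line differences. With no filter on low counts 1 member was lower in Molm-14 at the low dose. With 1 library left out, where the lone library of a group is assumed to vary like the other groups, the increases in HL-60 at the low dose ranged from 6 to 10 and the decreases in Molm-14 between doses from 16 to 26. RPKM in place of TPM moved no share of the catalytic subunits by as much as 1 SD. The immunosubunit share and all other counts kept within 1.5 times.

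The replicate numbers did not pair the libraries: the correlation of the deviations ran from -0.0832 to 0.178 between groups of a line. With the replicate number as a block, 30 members were lower in Molm-14 at the high dose, HL-60 cells had 9 increases and 29 decreases, and the counts moved by at most 2 members in any comparison.

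Every group holds 2 libraries, and depth differed 3.02-fold between the deepest and the shallowest. PSMC1 shares 76.1% of its exon bases with NRDE2, and its annotated pseudogene copies had 21.3% of its counts, so its values are uncertain.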
